A study of Mus musculus with 12 samples.

Results

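Genes of the SREBP program, the enzymes and regulators of sterol and fatty acid synthesis, were followed in alveolar macrophages of mouse lungs in a transplant model. The set was given as a list of 33 symbols, and each was matched to its Ensembl identifier in the deposited table of 43430 genes, where all 33 were found. Of these, 32 were among the 11419 genes tested, which had to reach 1 RPKM (reads scaled to gene length and library total) in at least 4 of 12 libraries. The exception was Acss2. The members fall into 18 enzymes of sterol synthesis, 5 regulators and sterol carriers, and 10 enzymes of fatty acid synthesis, elongation and desaturation.

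The study held 4 libraries from naive lungs, 4 from lungs 2 h after reperfusion and 4 from lungs 24 h after reperfusion. Every library was labelled as alveolar macrophages of male mice aged 14 weeks with the genotype Cx3cr1gfp/+B6, in which an allele of the chemokine receptor gene Cx3cr1 carries a green fluorescent protein reporter. Libraries after reperfusion have Allo in their titles, a word with no explanation, and the labels do not say whether the macrophages came from the donor or the recipient. The naive mice had no transplant, so the time after reperfusion cannot be told apart from any other step of the procedure. Whether each library is a separate animal is not stated, so p-values reflect the spread among these libraries only, and that spread may be technical.

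Library totals recovered from the values were 6112586 to 11997945 reads. The 15 markers of alveolar macrophages were all present, with summed RPKM of 12330 to 12690 in naive, 8635 to 9919 at 2 h and 10350 to 12150 at 24 h. Most of that sum is Chil3, with means of 7780, 4970 and 7802 RPKM, and the single markers changed: 6 were lower and 1 higher at 2 h, and 9 lower and 3 higher at 24 h. At 24 h Siglecf, Ear1 and Krt19 fell by 1.12, 1.13 and 1.12 on the log2(RPKM + 1) scale, and Marco rose by 2.06. Summed lymphocyte markers (10 genes, 5 of them tested) were 12.0 to 19.7 in naive, 3.33 to 9.43 at 2 h and 1.37 to 4.14 at 24 h, and all 5 tested fell at both times. Between naive and 2 h, 38 genes went from near 0 to at least 2 RPKM without overlap of the groups, 23 of them pseudogenes, while 2 genes did so at 24 h. No member was among them. For the 38 genes, the median ratio of the 24 h level to the 2 h level was 0.0453. Whether the mice of the 2 h group differed from those of the naive and 24 h groups in a way that their shared genotype label does not give was not tested. In every comparison of 2 h with naive, and of 24 h with 2 h, such a difference cannot be told apart from time. Summed markers of epithelium were 66.6 to 71.6, 59.6 to 77.5 and 33.5 to 41.3 RPKM in naive, at 2 h and at 24 h. Of the 4 tested, Epcam alone was called against naive, with means of 42.5 RPKM in naive and 12.2 at 24 h, and Sftpc and Scgb1a1 did not pass. From 2 h to 24 h Epcam and Cdh1 were called lower. Neutrophil sums were 20.2 to 28.9, 21.7 to 34.2 and 39.6 to 45.4. S100a8 alone was called against naive (10.2 and 29.8 RPKM in naive and at 24 h), and S100a9 stayed under the filter. From 2 h to 24 h S100a8 was called higher and Mmp8 lower. Monocyte sums were 25.0 to 26.6, 11.8 to 18.5 and 21 to 30.2, nearly all of it Fn1. Against naive, Fn1 fell at 2 h and did not pass at 24 h, while Ccr2 fell at both times. Those of interstitial macrophages were 6.51 to 10.9, 2.89 to 5.4 and 3.58 to 8.98, where C1qa, C1qb and C1qc fell at both times. Sums for dendritic, endothelial and stromal, and red cell and platelet markers were at most 7.12, 3.29 and 4.19. The part of these cells in the members' values was not tested. In bulk RNA, fewer cells of a type and less RNA per cell cannot be told apart.

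SREBP proteins are transcription factors held in the endoplasmic reticulum membrane together with SCAP, their escort. When membrane sterol is plentiful, INSIG proteins retain the complex. When it is scarce, SCAP carries SREBP to the Golgi, where proteases release the part that enters the nucleus and raises transcription of the genes of sterol and fatty acid synthesis. SREBP2, the product of Srebf2, acts mainly on sterol genes, and SREBP1c, from Srebf1, mainly on fatty acid genes. Oxysterols act the opposite way through the nuclear receptors LXR, which raise sterol export and also fatty acid synthesis. Alveolar macrophages take up and break down the lipids of surfactant.

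Promoter sequence was available in the RefSeq table (GRCm38.p6) for 26 of the 33 members, as 32 windows from 250 bases before to 50 bases after a start site. Fads1, Fdft1, Fdps, Scd1, Scd2, Sqle and Stard4 had no entry. The 250 bases before the start are shown for 4 members that were higher at 24 h, 2 of the mevalonate arm (Hmgcs1 and Idi1), 1 of fatty acid synthesis (Fasn) and 1 regulator (Insig1), and for Elovl5, which passed the test at neither time. Capitals mark the motifs searched for on both strands: TCACNCCAC, a form of the sterol regulatory element that SREBP binds, CCAAT, read by the factor NF-Y, and GGGCGG, the GC box of Sp1. Motifs on the other strand appear as their reverse complement, and in Fasn a CCAAT and an inverted CCAAT overlap. The windows lie at chr13:119690101-119690350 (plus strand, Hmgcs1, ENSMUSG00000093930), chr13:8885356-8885605 (plus, Idi1, ENSMUSG00000058258), chr11:120824548-120824797 (minus, Fasn, ENSMUSG00000025153), chr5:28071162-28071411 (plus, Insig1, ENSMUSG00000045294) and chr9:77917115-77917364 (plus, Elovl5, ENSMUSG00000032349).
Hmgcs1: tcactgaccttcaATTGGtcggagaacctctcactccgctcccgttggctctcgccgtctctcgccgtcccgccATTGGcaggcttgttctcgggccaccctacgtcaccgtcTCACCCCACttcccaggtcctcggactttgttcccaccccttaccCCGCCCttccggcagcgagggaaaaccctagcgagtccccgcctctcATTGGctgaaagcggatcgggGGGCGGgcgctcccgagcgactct
Idi1: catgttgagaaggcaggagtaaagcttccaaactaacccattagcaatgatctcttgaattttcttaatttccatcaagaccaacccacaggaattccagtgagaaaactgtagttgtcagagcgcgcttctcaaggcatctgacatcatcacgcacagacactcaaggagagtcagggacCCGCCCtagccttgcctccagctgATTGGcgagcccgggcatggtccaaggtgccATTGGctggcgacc
Fasn: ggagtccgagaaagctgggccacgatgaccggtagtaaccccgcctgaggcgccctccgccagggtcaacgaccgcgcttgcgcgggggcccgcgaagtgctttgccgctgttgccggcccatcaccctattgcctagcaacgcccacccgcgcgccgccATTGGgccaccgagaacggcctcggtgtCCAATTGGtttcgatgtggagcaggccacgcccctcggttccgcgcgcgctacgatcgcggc
Insig1: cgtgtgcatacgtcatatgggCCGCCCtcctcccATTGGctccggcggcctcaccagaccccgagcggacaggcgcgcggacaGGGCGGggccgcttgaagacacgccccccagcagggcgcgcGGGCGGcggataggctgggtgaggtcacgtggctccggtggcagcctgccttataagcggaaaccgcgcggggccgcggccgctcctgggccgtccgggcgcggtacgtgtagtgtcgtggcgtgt
Elovl5: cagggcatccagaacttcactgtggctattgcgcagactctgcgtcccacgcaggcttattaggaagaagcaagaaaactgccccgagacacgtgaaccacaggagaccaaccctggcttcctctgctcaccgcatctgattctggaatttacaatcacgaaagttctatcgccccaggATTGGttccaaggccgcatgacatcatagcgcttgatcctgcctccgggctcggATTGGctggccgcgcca
The sterol regulatory element in this form was in 1 of 32 member windows (3.12%), that of Hmgcs1, where its first base lies at -137 from the start, and in 1.24% of all 32851 windows of the table. CCAAT was in 21 of 32 member windows (65.6%) against 37.4% of all windows. The GC box was in 24 of 32 (75.0%) against 35.7%. The shares of all windows were taken without regard to expression here. Shares among the tested genes alone were not counted, so whether the members differ from other expressed genes was not tested. Elovl5 holds CCAAT as well, at -71 and -17, so this motif is found in windows of members that were higher at 24 h and of a member that passed no test. These matches describe letters in the windows and do not show binding.

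At 24 h, 26 of the 32 tested members were higher than in naive macrophages, 1 was lower and 5 did not pass (limma's moderated test on log2(RPKM + 1), adjusted p under 0.05, with the Benjamini-Hochberg adjustment made over every gene tested). Over all genes tested, 25.3% were higher and 20.6% lower. The median log2 fold change of the members was 0.82, beside 0.00 for all genes. At 2 h, 5 members were higher, 8 lower and 19 did not pass, where 14.7% of all genes were higher and 22.0% lower. The members' median was -0.11 at that time, and that of all genes -0.04. From 2 h to 24 h, 26 members rose, 2 fell and 4 did not pass, beside 30.9% higher and 21.5% lower among all genes, with medians of 0.80 and 0.05. Tm7sf2 and Fads2 reached 1 RPKM only in 24 h libraries, so their testing itself depended on the 24 h values. Without them, 24 of 30 members were higher at 24 h than in naive, and 1 lower.

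The 4 libraries of 24 h lay wholly above the 4 naive ones for 28 of the 32 tested members, as they did for 25.8% of all genes, and wholly below for 0 (22.0% of all genes). At 2 h, 4 members lay wholly above naive (14.0% of all genes) and 7 wholly below (20.5%). Between the 2 times after reperfusion, 26 lay wholly above at 24 h (27.5%) and 0 wholly below (18.2%).

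**Figure D1:**
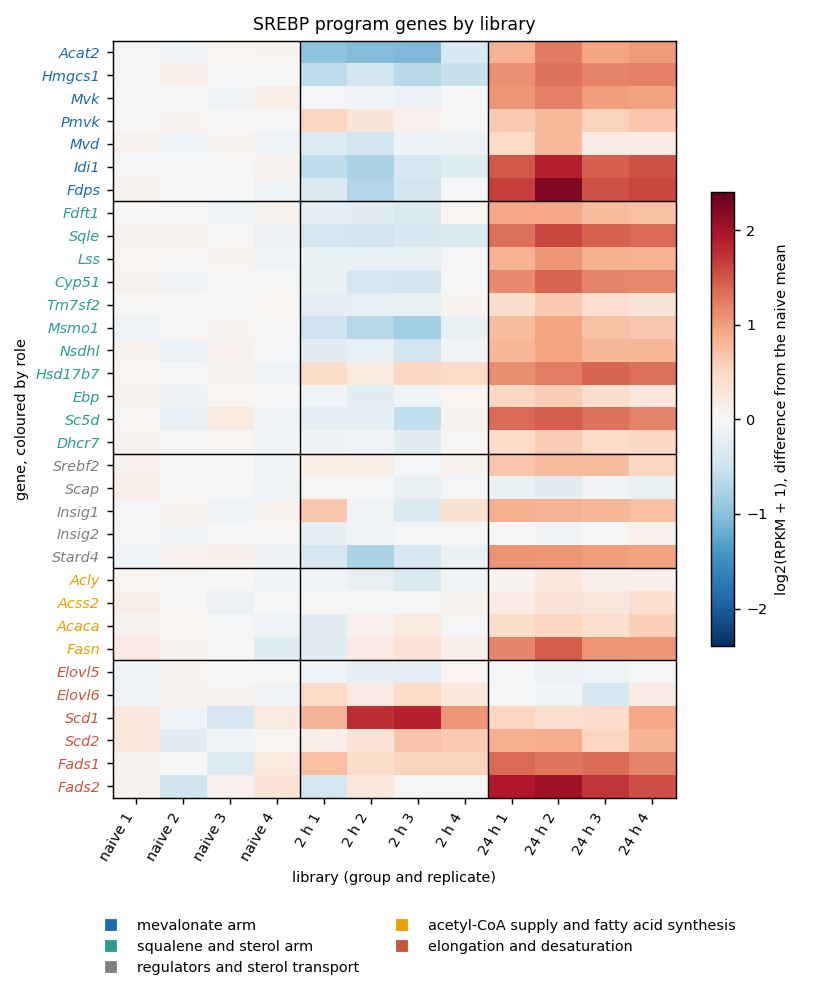
Difference of log2(RPKM + 1) from the naive mean for the 33 members (rows, ordered by role) in each of the 12 libraries (columns). The sterol enzymes are red in the 4 libraries of 24 h and mostly pale blue at 2 h, where Hsd17b7, Scd1, Scd2, Fads1 and Elovl6 were the members called higher.

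Sterol synthesis comes first. At 24 h 18 of 18 sterol enzymes were higher than in naive, by 0.41 to 1.75 on the log2(RPKM + 1) scale, with a median of 0.95. At 2 h 7 of the 18 were lower, 1 was higher and 10 did not pass, with a median of -0.24. Of all genes, 25.3% were higher at 24 h, and 22.0% were lower and 14.7% higher at 2 h. All 18 sterol enzymes rose between 2 h and 24 h, with a median of 1.11, beside 30.9% of all genes. Without Tm7sf2, the count was 17 of 17 in both comparisons of 24 h.

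The mevalonate arm carries acetyl-CoA to farnesyl diphosphate, and its 7 members were all higher at 24 h, with a median of 1.06. Hmgcs1, the cytosolic synthase that makes HMG-CoA, had RPKM of 43.7, 49.3, 44.0 and 44.8 in the naive libraries. At 2 h the values were 29.3, 33, 28.1 and 30.9, and at 24 h 98.1, 114, 103 and 107. The 3 groups did not overlap: every 2 h library lay below and every 24 h library above the naive range. The log2 fold change was -0.57 ± 0.06 (SE, n = 4 per group) at 2 h, with an adjusted p of 6.95e-05 in limma, and 1.2 ± 0.06 at 24 h, with an adjusted p of 6.91e-08. As a ratio of mean RPKM, Hmgcs1 at 24 h was 2.32 times naive and 3.48 times 2 h.

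Idi1, the isomerase that makes dimethylallyl diphosphate, followed the same order. Its naive values were 7.76, 7.75, 8.05 and 8.52 RPKM, those at 2 h 4.91, 4.36, 5.88 and 6.41, and those at 24 h 24.2, 32.0, 23.3 and 24.9. Again no library of a group reached another group's range, and 24 h replicate 2 stood highest. Idi1 fell by 0.51 ± 0.11 at 2 h (adjusted p 0.00462, limma) and rose by 1.58 ± 0.11 at 24 h (adjusted p 5.62e-07). Acat2, the cytosolic thiolase that joins acetyl-CoA units, showed the lowest 2 h values relative to naive. It had 3.36, 3.26, 3.59 and 3.66 RPKM in naive, 1.28, 1.17, 1.15 and 2.46 at 2 h, and 6.92, 9.63, 7.58 and 8.04 at 24 h. Its 2 h replicate 4 lay between the other 2 h libraries and naive, and the 3 groups stayed apart. The log2 fold change was -0.86 ± 0.14 at 2 h and 1.01 ± 0.14 at 24 h, with adjusted p of 0.000881 and 0.000133. The gene Acat3 matches Acat2 at 97.7% identity, so reads may be shared. Its mean RPKM was 7.07 in naive, 7.06 at 2 h and 9.0 at 24 h.

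Mvk, mevalonate kinase, had naive values of 1.17, 1.12, 1.09 and 1.39 RPKM and 2 h values of 1.11, 1.09, 0.979 and 1.18, which overlap. Its 24 h values were 3.56, 4.05, 3.41 and 3.26, all well above. Its log2 fold change at 24 h was 1.06 ± 0.07, with an adjusted p of 3.93e-07 in limma. Fdps, which makes farnesyl diphosphate, went from 26.2 to 29.6 RPKM in naive through 16.9 to 27.6 at 2 h to 82.5 to 134 at 24 h. Its log2 fold change of 1.75 ± 0.16 at 24 h was the highest among the sterol enzymes, and the 134 belonged to 24 h replicate 2, well above the other 24 h libraries. Pmvk, phosphomevalonate kinase, and Mvd, which decarboxylates the pathway's diphosphate intermediate, rose least in this arm, by 0.66 ± 0.10 and 0.41 ± 0.12 at 24 h. Mvd did not pass when naive replicate 4 was left out (adjusted p 0.05). At 2 h, Mvk, Pmvk, Mvd and Fdps did not pass, with log2 fold changes of -0.07, 0.23, -0.26 and -0.37.

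**Figure D2:**
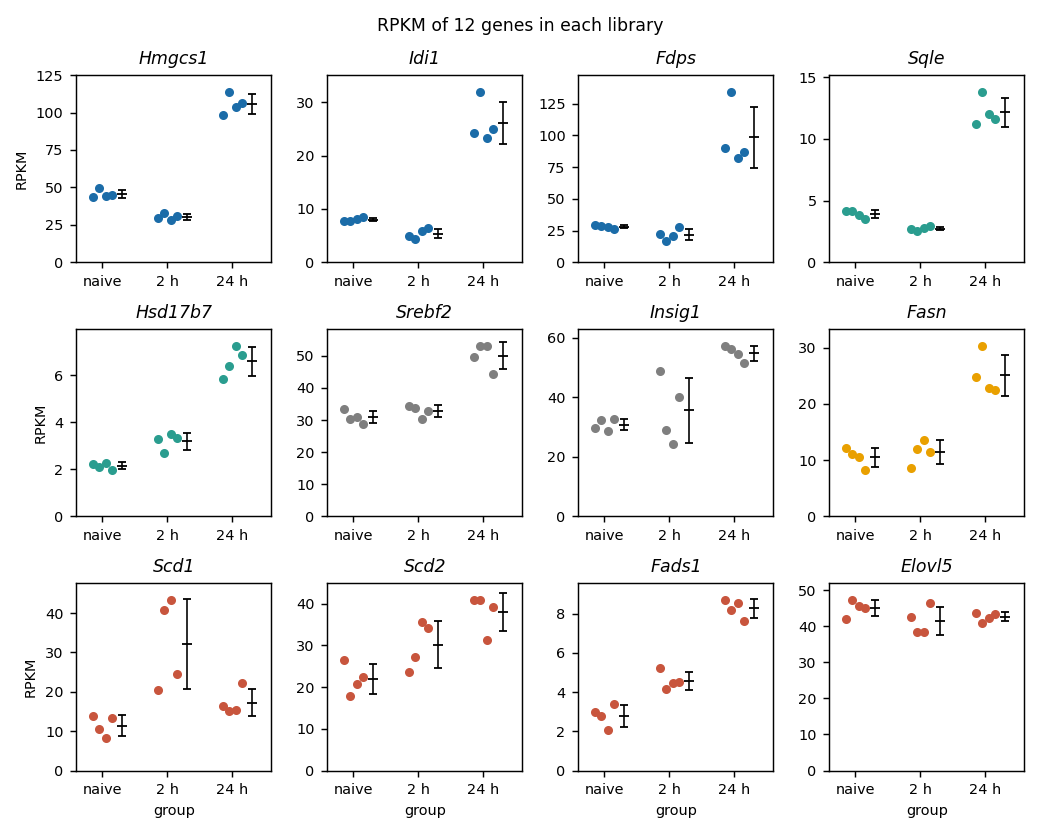
RPKM in each library for 12 members, with the group mean and SD (n = 4) beside the points, on linear axes that start at 0. Hmgcs1, Idi1 and Sqle were lowest at 2 h and highest at 24 h, Scd1 was highest at 2 h, and Elovl5 passed no test.

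The squalene and sterol arm begins where 2 farnesyl units are joined, and ends at cholesterol. Its 11 members were all higher at 24 h than in naive, with a median log2 fold change of 0.84. Sqle, squalene epoxidase, had 4.19, 4.17, 3.79 and 3.5 RPKM in naive, 2.67, 2.57, 2.78 and 2.93 at 2 h, and 11.2, 13.8, 12.0 and 11.6 at 24 h. The groups did not overlap, and the 4 libraries of 2 h were close together. Its log2 fold change was -0.39 ± 0.07 at 2 h, with an adjusted p of 0.00142 in limma, and 1.42 ± 0.07 at 24 h, with an adjusted p of 4.28e-08. Mean RPKM at 24 h was 3.11 times naive.

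Hsd17b7, a ketoreductase of C4 demethylation, was the only sterol enzyme called higher at 2 h. It had 2.24, 2.10, 2.29 and 1.97 RPKM in naive, 3.27, 2.68, 3.51 and 3.33 at 2 h, and 5.85, 6.41, 7.26 and 6.89 at 24 h. The groups were apart in that order, so its 2 h libraries lay between naive and 24 h, unlike those of Sqle. It rose by 0.41 ± 0.08 at 2 h (adjusted p 0.0018, limma) and by 1.27 ± 0.08 at 24 h (adjusted p 1.65e-07). Leaving out 2 h replicate 4 raised the count of sterol enzymes called higher at 2 h to 2, with Pmvk as the other.

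3 further enzymes of this arm were lower at 2 h and higher at 24 h. Msmo1, the C4-methylsterol oxidase, had 5.36, 5.95, 6.11 and 5.85 RPKM in naive, 3.81, 3.25, 2.86 and 5.04 at 2 h, and 10.4, 12.2, 10.1 and 9.72 at 24 h. The groups did not overlap, though 2 h replicate 4 came close to naive. Msmo1 fell by 0.54 ± 0.12 at 2 h (adjusted p 0.00446, limma) and rose by 0.76 ± 0.12 at 24 h. Cyp51, lanosterol demethylase, had 13.6, 12.1, 12.8 and 12.5 RPKM in naive, 11.2, 9.18, 9.09 and 12.4 at 2 h, and 29.3, 35.3, 29.9 and 29.5 at 24 h. Nsdhl, a dehydrogenase of the same demethylation steps, had 8.06, 6.82, 8.25 and 7.40 in naive, 6.09, 6.48, 5.30 and 7.21 at 2 h, and 14.0, 15.7, 14.0 and 13.9 at 24 h. For both genes the 2 h libraries overlapped naive through replicate 4, and the 24 h libraries were wholly above. Their 2 h changes of -0.27 ± 0.09 and -0.25 ± 0.08 were near the threshold, with adjusted p of 0.0434 and 0.0334 in limma. The call was lost in 13 of 25 other settings for Cyp51 and in 10 of 25 for Nsdhl.

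The remaining 6 enzymes of this arm were higher at 24 h and did not pass at 2 h. Sc5d, the sterol C5 desaturase, ranged from 4.02 to 5.72 RPKM in naive and from 12.1 to 14.7 at 24 h (log2 fold change 1.32 ± 0.13). Lss, lanosterol synthase, ranged from 1.21 to 1.47 in naive and from 3.20 to 3.88 at 24 h (0.90 ± 0.07), and Fdft1, squalene synthase, from 16.6 to 18.8 and from 29.7 to 34.9 (0.83 ± 0.09). Dhcr7 and Ebp, a reductase and an isomerase of the last steps, rose by 0.50 ± 0.07 and 0.44 ± 0.08, and Tm7sf2, a C14 sterol reductase, by 0.44 ± 0.10 from naive values under 1 RPKM. The log2(RPKM + 1) scale understates low genes: as ratios of mean RPKM to naive, Dhcr7, Ebp and Tm7sf2 were at 1.51, 1.39 and 1.91. Exons of Lss, Fdft1 and Tm7sf2 overlap those of other genes, and how strand was treated in the counting is not given in the sources used here. At Lss the antisense gene 4930483K19Rik had a mean of 2.00 RPKM in naive and 5.89 at 24 h, and Ctsb at Fdft1 306 and 399. Vps51 at Tm7sf2 had 5.16 and 4.38, the opposite direction.

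**Figure D3:**
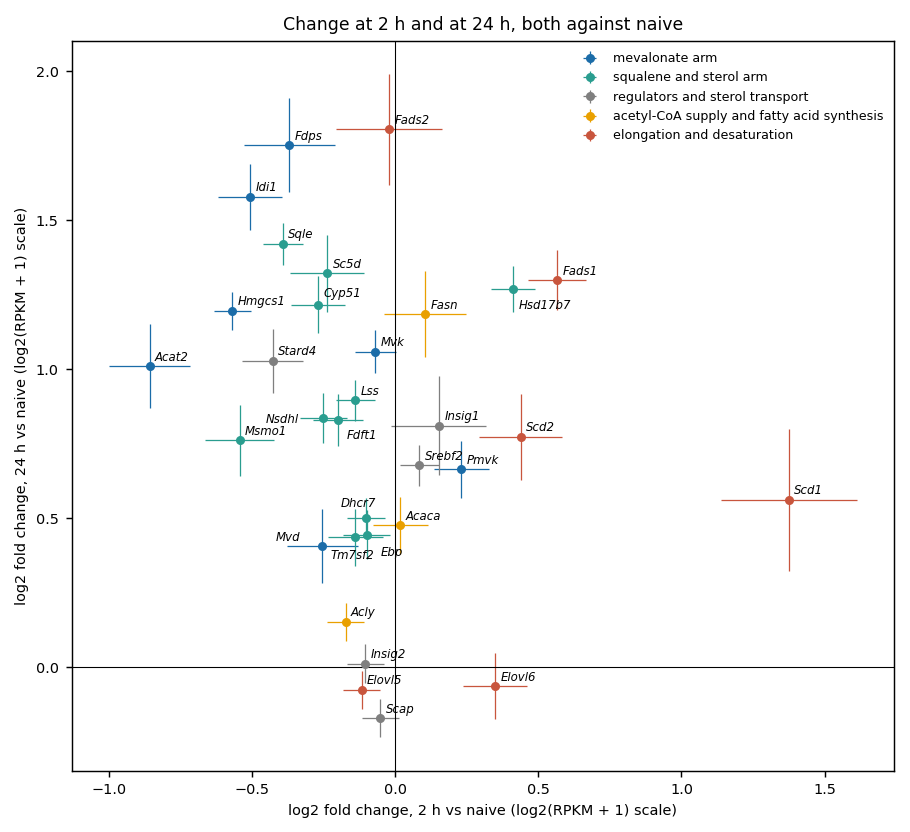
Log2 fold change at 2 h (horizontal axis) and at 24 h (vertical axis), both against the same 4 naive libraries, for the 32 tested members, with bars of 1 SE. Most sterol enzymes lie left of 0 and above it, Fads1, Scd2 and Hsd17b7 lie right of 0 and above it, and Scd1 lies farthest right.

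8 members were called lower at 2 h and higher at 24 h: Acat2, Hmgcs1, Idi1, Sqle, Cyp51, Msmo1, Nsdhl and the sterol carrier Stard4. Of all genes tested, 22.0% were lower at 2 h and 25.3% higher at 24 h. The share of all genes with both calls was not counted, so how unusual this pattern is was not tested. Their log2 fold changes from 2 h to 24 h ran from 1.09 for Nsdhl to 2.09 for Idi1. These values are a description, since the choice of genes with opposite calls all but fixes them. Among the libraries, the median difference of the 18 sterol enzymes from the naive mean was -0.23, -0.28, -0.36 and -0.03 in 2 h replicates 1 to 4. The libraries of 2 h thus lay at unequal distances, with replicate 4 nearest to naive, and it held the highest 2 h value for 14 of the 18 enzymes. Without it 10 of the 18, and 13 of all tested members, were called lower at 2 h. In 24 h replicates 1 to 4 the same median was 0.88, 1.13, 0.90 and 0.90. Replicate 2 held the highest 24 h value for 16 of the 18 enzymes, and without it 18 of 18 were still called higher than in naive.

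Among the 5 regulators and sterol carriers, 3 were higher at 24 h, 1 was lower and 1 did not pass, and 1 was lower at 2 h. Of all genes, 25.3% were higher and 20.6% lower at 24 h, and 22.0% were lower at 2 h. Srebf2, which encodes SREBP2, had 33.3, 30.2, 31.1 and 28.9 RPKM in naive, 34.3, 33.7, 30.2 and 32.9 at 2 h, and 49.7, 53.1, 53.1 and 44.3 at 24 h. The naive and 2 h libraries overlapped, and those of 24 h were all above. The log2 fold change at 24 h was 0.68 ± 0.07, with an adjusted p of 1e-05 in limma, and at 2 h it was 0.08 ± 0.07, which did not pass. Transcript levels do not measure processed SREBP2 protein.

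Stard4, which carries cholesterol between membranes, had 4.48, 5.30, 5.33 and 4.38 RPKM in naive, 3.48, 2.45, 3.43 and 4.23 at 2 h, and 11.3, 11.3, 10.7 and 10.5 at 24 h. The groups did not overlap, and 2 h replicate 4 again lay nearest to naive. Stard4 fell by 0.43 ± 0.11 at 2 h (adjusted p 0.00945, limma) and rose by 1.03 ± 0.11 at 24 h (adjusted p 1.41e-05). Insig1, which retains SCAP and is itself a target of SREBP, had 29.6, 32.4, 28.7 and 32.8 RPKM in naive and 57.4, 56.1, 54.5 and 51.6 at 24 h. At 2 h its libraries spread widely, at 48.8, 29.1, 24.4 and 40.1. The 24 h libraries were wholly above the others, while those of 2 h ran from below the naive range to above it. The log2 fold change was 0.81 ± 0.17 at 24 h, with an adjusted p of 0.00184 in limma, and 0.15 ± 0.17 at 2 h, which did not pass.

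For the 2 remaining regulators the differences were small. Scap had 29.2, 26.0, 25.4 and 24.4 RPKM in naive, 26.9, 25.5, 23.0 and 25.7 at 2 h, and 23.2, 21.9, 24.6 and 23.0 at 24 h. The 3 ranges overlapped. It was the only member called lower at 24 h, by a log2 fold change of -0.17 ± 0.06 with an adjusted p of 0.0485 in limma, and the call was lost in 11 of 25 other settings, with adjusted p up to 0.14. Insig2, the second INSIG gene, ranged from 1.57 to 2.26 RPKM over all 12 libraries, and its log2 fold changes of -0.10 at 2 h and 0.01 at 24 h did not pass.

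Calls among the fatty acid genes were mixed. At 2 h 4 of 9 tested were higher and 0 lower, beside 14.7% and 22.0% of all genes, with a median of 0.10. At 24 h 5 were higher and 0 lower, beside 25.3% and 20.6% of all genes, with a median of 0.56. Without Fads2, which reached the filter through its 24 h libraries alone, 4 of 8 were higher at each time, with medians of 0.23 and 0.52. All 4 that were higher at 2 h belong to elongation and desaturation. From 2 h to 24 h 5 rose and 2 fell, beside 30.9% higher and 21.5% lower among all genes. Without naive replicate 4, or without 2 h replicate 3, the count higher at 2 h was 2, since Elovl6 and Scd2 no longer passed. The count lower at 2 h was 2 without 2 h replicate 4, with Acly and Elovl5 as those genes.

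Of the enzymes that supply acetyl-CoA and build palmitate, Fasn, fatty acid synthase, had 12.2, 11.1, 10.6 and 8.17 RPKM in naive, 8.58, 12.0, 13.6 and 11.4 at 2 h, and 24.8, 30.4, 22.8 and 22.5 at 24 h. Naive and 2 h overlapped, and the 24 h libraries were wholly above. Its log2 fold change was 1.18 ± 0.14 at 24 h, with an adjusted p of 4.61e-05 in limma, and 0.10 ± 0.14 at 2 h. Acaca, acetyl-CoA carboxylase, had 2.62, 2.54, 2.33 and 2.16 RPKM in naive, 1.87, 2.68, 3.0 and 2.36 at 2 h, and 3.63, 3.86, 3.43 and 4.07 at 24 h. Again only the 24 h libraries stood apart, with a log2 fold change of 0.48 ± 0.10 and an adjusted p of 0.0016 in limma. Acly, which cleaves citrate to acetyl-CoA, rose from 2 h to 24 h by 0.33 ± 0.06, while its changes against naive, -0.17 at 2 h and 0.15 at 24 h, did not pass. Its adjusted p at 2 h was 0.0521 and passed in 10 of 25 other settings. Acss2, which makes acetyl-CoA from acetate, had means of 0.303 ± 0.109 RPKM in naive, 0.315 ± 0.0468 at 2 h and 0.583 ± 0.0924 at 24 h (SD, n = 4). Its 24 h libraries were above all others, and it was not tested because it stayed under 1 RPKM. Exons of Acss2 overlap those of Acss2os, Gss and Ggt7 on the opposite strand, so reads may be shared. Mean RPKM of Acss2os was 0.509 in naive, 0.534 at 2 h and 1.11 at 24 h, and that of Gss 0.965, 0.967 and 1.31.

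Desaturases introduce double bonds, Scd1 and Scd2 into saturated chains and Fads1 and Fads2 into polyunsaturated ones. Scd1 had 13.8, 10.5, 8.23 and 13.2 RPKM in naive, 20.4, 40.6, 43.3 and 24.5 at 2 h, and 16.4, 15, 15.4 and 22.2 at 24 h. Every 2 h library was above the naive range, with replicates 2 and 3 highest, and the 24 h libraries lay above naive and overlapped 2 h. The log2 fold change was 1.38 ± 0.24 at 2 h, with an adjusted p of 0.00112 in limma, and 0.56 ± 0.24 at 24 h, with an adjusted p of 0.0733. From 2 h to 24 h Scd1 fell by 0.81 ± 0.24 (adjusted p 0.0128). Scd2 had means of 22 ± 3.55, 30.2 ± 5.73 and 38.1 ± 4.51 RPKM (SD, n = 4) in naive, at 2 h and at 24 h. It was called higher at both times, by 0.44 ± 0.14 and 0.77 ± 0.14, and the 2 h call was lost in 8 other settings. Scd1 and Scd2 share a stretch with 95.5% identity, so some reads could be assigned to either.

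Fads1, the delta-5 desaturase, had 2.96, 2.77, 2.05 and 3.41 RPKM in naive, 5.23, 4.14, 4.45 and 4.51 at 2 h, and 8.71, 8.20, 8.54 and 7.64 at 24 h. The groups did not overlap and stood in the order of time. Fads1 rose by 0.56 ± 0.10 at 2 h (adjusted p 0.00142, limma) and by 1.30 ± 0.10 at 24 h (adjusted p 1.18e-06). Fads2, the delta-6 desaturase, had 0.603, 0.0836, 0.620 and 0.868 RPKM in naive, 0.129, 0.833, 0.540 and 0.549 at 2 h, and 4.75, 5.20, 3.97 and 3.41 at 24 h. These values rest on 8, 1, 7 and 8 reads in naive, 2, 13, 7 and 6 at 2 h, and 86, 85, 57 and 47 at 24 h. Only the 24 h libraries were above 1 RPKM, and naive and 2 h could not be separated at this depth. Its log2 fold change at 24 h was 1.80 ± 0.19, with an adjusted p of 1.21e-05 in limma.

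Elongases lengthen the chains. Elovl6, which acts on saturated chains, had 3.06, 3.54, 3.5 and 3.05 RPKM in naive, 4.92, 3.90, 4.95 and 4.13 at 2 h, and 3.22, 3.09, 2.31 and 3.92 at 24 h. Its 2 h libraries were above naive, and the 24 h libraries overlapped naive and just reached the 2 h range. Elovl6 rose by 0.35 ± 0.11 at 2 h (adjusted p 0.0283, limma; lost in 7 other settings) and fell by 0.41 ± 0.11 from 2 h to 24 h (adjusted p 0.00804). Elovl5, which acts on polyunsaturated chains, ranged from 38.3 to 47.3 RPKM over all 12 libraries, with log2 fold changes of -0.12 ± 0.06 at 2 h and -0.08 ± 0.06 at 24 h that did not pass. At both Scd1 and Elovl6 the rise at 2 h was followed by a fall, while all 18 sterol enzymes rose over the same interval.

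Related lists put the members beside neighbouring steps, and their counts stand beside 25.3% higher and 20.6% lower among all genes at 24 h, and 14.7% and 22.0% at 2 h. Among other sterol and isoprenoid branch enzymes, 7 of 10 tested were higher at 24 h and 1 lower, with a median of 0.35. Tmem97, a sterol-regulated membrane protein, went from 11.7 ± 0.982 to 23.1 ± 0.753 RPKM (SD, n = 4; log2 fold change 0.93, adjusted p 1.22e-06, limma), and Lbr, a sterol reductase of the nuclear envelope, rose by 1.07. At 2 h this list had 3 higher and 3 lower. Other fatty acid enzymes numbered 6 higher and 1 lower of 11 tested at 24 h, and 2 higher and 3 lower at 2 h. The 6 include Hacd1, which reached 1 RPKM only in its 24 h libraries (1.31 to 1.66), so its testing itself depended on the 24 h values. Slc25a1, the mitochondrial citrate exporter, rose by 1.04 at 24 h, Hsd17b12, a reductase of the elongation cycle, by 0.64 and Tecr, of the same cycle, by 0.48.

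The machinery that processes SREBP and degrades sterol-sensing proteins had 2 higher and 1 lower of 11 tested at 24 h, shares under those of all genes in both directions. Erlin1 and Erlin2, scaffold proteins of the endoplasmic reticulum, rose by 0.18 and 0.16, calls that did not hold under some scalings (quantile normalisation and equal totals gave 0 higher in this list), and the ubiquitin ligase gene Rnf145 fell by 0.42. Srebf1 was at 9.51, 9.75 and 10.03 RPKM on average in naive, at 2 h and at 24 h, and did not pass at either time. Lipoprotein uptake and lysosomal sterol egress had 1 higher and 2 lower of 9 tested at 24 h: Lrp8, a lipoprotein receptor, rose by 0.77, and Lrp1, another receptor of that family, and Stard3, a lysosomal sterol carrier, fell by 0.50 and 0.32. Lrp8 stayed under 1 RPKM in the naive libraries (0.968 to 0.993), so its testing itself depended on the libraries after reperfusion.

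On the oxysterol and LXR side, 5 of 7 tested genes were lower at 24 h and 0 higher, with a median of -0.56. Abca1 and Abcg1, the sterol exporters induced by LXR, went from 30.7 ± 3.38 and 655 ± 14.3 RPKM in naive to 9.08 ± 2.21 and 302 ± 38.1 at 24 h (SD, n = 4). Their log2 fold changes were -1.67 and -1.12, with adjusted p of 2.22e-06 and 9.25e-07 in limma, and Mylip, a ubiquitin ligase induced by LXR, fell by 1.47. At 2 h Abca1 did not pass (0.32), Abcg1 fell by 0.43, and the list had 2 higher and 3 lower. The 5 lower calls at 24 h were also counted under each of the 3 other scalings.

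Cell cycle genes are given because their medians moved in the same directions as those of the sterol enzymes, which is a choice and not a result. At 24 h 20 of 20 were higher, with a median of 2.03. At 2 h 14 were lower and 0 higher, with a median of -0.44. The fatty acid genes differed at 2 h, with 4 of 9 tested higher and 0 lower. Rrm2, a subunit of ribonucleotide reductase, went from 10.7 ± 1.04 RPKM in naive to 6.63 ± 0.949 at 2 h and 64.0 ± 3.21 at 24 h (SD, n = 4), Rrm1, its partner subunit, rose by 2.16 at 24 h, and Mcm7, of the replicative helicase, by 1.68. The median of the list in each library was -0.55, -0.49, -0.32 and -0.26 at 2 h and 2.03, 2.15, 2.09 and 1.88 at 24 h. As with the sterol enzymes, 2 h replicate 4 lay nearest to naive and 24 h replicate 2 highest. The part of cell division in the members' values was not tested.

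**Figure D4:**
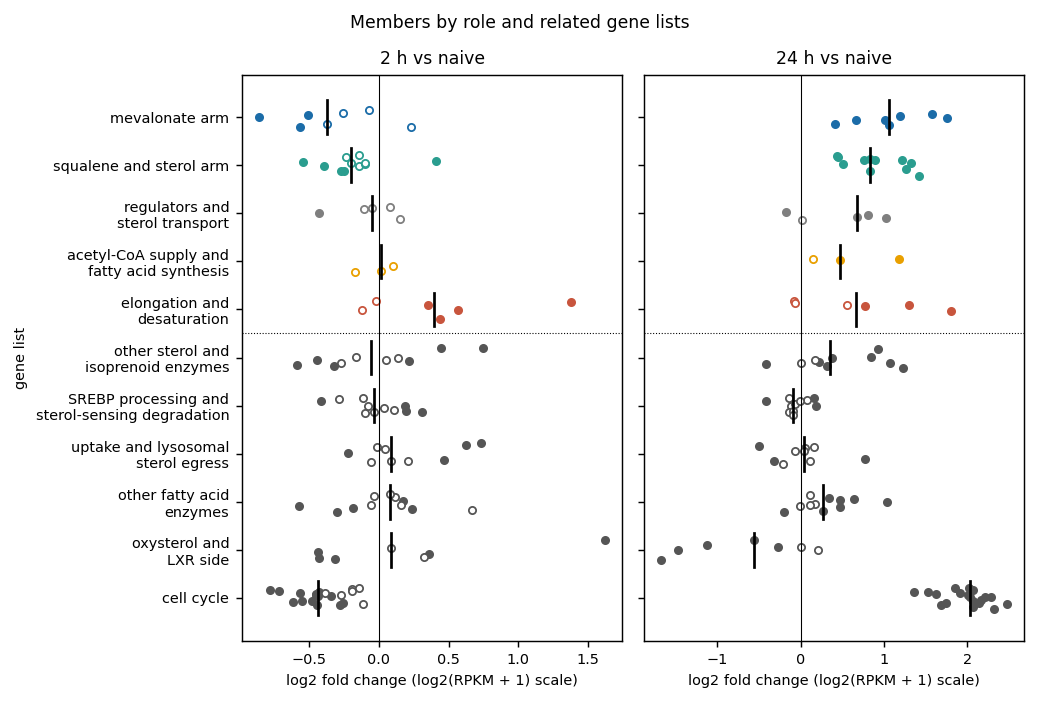
Log2 fold change of each tested gene at 2 h (left) and 24 h (right) against naive, by role of the members (coloured, above the dotted line) and in the related lists (grey, below it), with filled points for genes that passed and a bar at each median. The mevalonate and sterol arms and the cell cycle list lie to the left at 2 h and to the right at 24 h, and the oxysterol and LXR side lies to the left at 24 h.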

How the data were processed

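Per the labels' protocols, polyadenylated RNA from a PicoPure isolation went into standard Illumina libraries. The authors deposited RPKM values per Ensembl gene, 1 column per library. Tools named in the submitters' processing notes are bcl2fastq, TopHat2 and HTSeq, with build mm10. For versions, annotation, gene length, strand setting and filters, nothing was given in the sources used here. The length implied by the values equalled the exon union in 16.4% of genes, so levels are not compared between genes.

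Libraries were grouped by their time point label, 4 per group. Symbols came from GENCODE M21. Genes with at least 1 RPKM in at least 4 of 12 libraries (11419) were tested with limma 3.58.1 in R 4.3.3 on log2(RPKM + 1), all 12 libraries in a single fit with a variance trend, two-sided, with Benjamini-Hochberg adjustment over every tested gene in each comparison, threshold 0.05. Fold changes on this scale understate the change of low genes. RPKM values are not counts, and whole reads were recovered within 0.02 of a read for 99.9% of tested genes, which gave the library totals. A gene of 1 kb with 3 reads would have 0.25 to 0.491 RPKM, counting error only. The test was run on simulated data with known changes. Near copies were searched among transcripts with BLAST 2.17.0 (at least 90% identity over 500 bases), and 7 members had such a match: Acaca, Acat2, Elovl6, Fdft1, Idi1, Scd1 and Scd2. Exons of 11 members overlap another gene: Acss2, Cyp51, Elovl6, Fdft1, Fdps, Hmgcs1, Idi1, Lss, Scap, Scd2 and Tm7sf2. Fdps shares 1124 exon bases with the gene Gm43738 on the same strand.

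The members and lists were chosen with earlier results of these data known. Values in every library are given for the 2 members of each role with the smallest p at 24 h against naive, for members called against their role's majority, and for members called in opposite directions at 2 h and 24 h. Of each related list the 3 genes with the smallest p at 24 h are named, except 1 that is not reported here. Insig1, Fads2's read numbers and genes outside this rule were added after their values were seen. 25 other settings were run, 2 of them added after seeing the data.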

Additional observations from a re-analysis of the deposited data

Results flagged for a closer look

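In 6 of 99 groups of 4 libraries, 1 library stood far from the other 3 relative to the group's range (Dixon's test, critical value 0.829), where chance gives about 1 in 20. At 24 h, replicate 2 was the high library for Fdps (134 RPKM), Lss (3.88), Cyp51 (35.3) and Nsdhl (15.7). At 2 h, replicate 4 was the high library for Acat2 (2.46 RPKM). In naive, replicate 2 was the low library for Insig2 (1.88 RPKM).

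8 members were called lower at 2 h and higher at 24 h against naive, and the share of all genes with both calls was not counted. Their difference between the times follows from that choice and is given as a description. The log2 fold changes from 2 h to 24 h were 1.87 for Acat2, 1.77 for Hmgcs1, 2.09 for Idi1, 1.81 for Sqle, 1.49 for Cyp51, 1.31 for Msmo1, 1.09 for Nsdhl and 1.46 for Stard4.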

How the results depend on the processing

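Of 2379 recomputed values of single members over 25 other settings, 2296 kept their call, 50 lost it, 33 gained it and 0 turned a called direction. 17 values that did not pass changed sign, in 7 members. At 24 h against naive, 21 to 28 members were higher over the other settings, and 15 to 18 sterol enzymes, the low counts coming with a filter at 5 RPKM, which tests fewer genes. The size of the medians moved as well. Over all settings the sterol enzymes' median ran from 0.89 to 1.21 at 24 h against naive, and from 1.03 to 1.56 from 2 h to 24 h. That of all members ran from 0.76 to 0.89 and from 0.72 to 1.07.

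At 2 h the counts were less stable. Members higher were 5, and 3 without a filter and with the replicate block, and 3 to 5 with a library left out. Members lower were 8, and 13 with library weights, and 6 to 13 with a library left out. Sterol enzymes higher were 1, and 2 with library weights, and 1 to 2 with a library left out. Fatty acid genes higher were 4, and 2 without a filter and with the block, and 2 to 4 with a library left out. Fatty acid genes lower were 0, and 1 with a filter at 5 RPKM, quantile normalisation, equal totals, voom on recovered reads or protein-coding genes alone, 2 with library weights, and 0 to 2 with a library left out. The regulators' median of -0.05 became 0.0156 with the filter at 5 RPKM, where Insig2 is no longer tested. The median of the fatty acid genes at 2 h ran from 0.02 to 0.27 over all settings.

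Scap, the member and regulator lower at 24 h, was lost (1 to 0) without a filter, with the block, without the variance trend, and in 8 of the fits with a library left out (0 to 1). With the filter at 5 RPKM, fatty acid genes higher at 24 h were 3 and not 5, those rising from 2 h to 24 h 3 and not 5, and those falling 1 and not 2, as for all members. Regulators falling from 2 h to 24 h were 0, and 1 with median-ratio scaling or quantile normalisation. That filter also gave 1544 genes lower at 2 h (2514 otherwise), and from 2 h to 24 h 2307 higher (3534) and 1616 lower (2458). Median-ratio scaling changed the split of all genes called at 2 h from 1675 higher and 2514 lower (40.0% higher) to 2062 and 2043 (50.2%), and of members from 5 and 8 to 5 and 6. From 2 h to 24 h the same scaling gave 2984 higher and 3011 lower among all genes (49.8% higher, against 59.0%), and members 26 and 3. At 24 h against naive quantile normalisation gave 2557 higher and 2738 lower (48.3%, against 55.1%). The members' split at 24 h was 26 and 1 under each of the 3 scalings.

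Replicate numbers paired no libraries: the correlations of same-numbered libraries' deviations from their group means were -0.043 to 0.055, and the numbers may only name libraries. Depth limits Fads2 in naive and at 2 h (1 to 13 reads). Overlapping and near-identical genes could not be separated.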
